A study of Homo sapiens with 15 samples.

Results

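HSP90 and its co-chaperones were followed by dose as 9 genes, chosen by name, of the 59608 genes in the table. They are the cytosolic HSP90 isoforms HSP90AA1 and HSP90AB1 and the co-chaperones AHSA1, CHORDC1, FKBP4, STIP1, CACYBP, PTGES3 and CDC37. The choice was made with earlier results of these data known. RNA came from the human breast cancer line MDA-MB-231, which lacks estrogen and progesterone receptors. It was kept as a 2D culture and exposed for 6 h to 0.1% DMSO or to ZJ-101 at 0.5, 5, 50 or 500 nM. ZJ-101 is a simplified synthetic analog of superstolide A, a compound from a marine sponge. Each of the 5 groups had 3 libraries of this single line. The series text speaks of triplicate dishes, and the labels call the treated libraries biological replicates and number those of DMSO. Where dishes came from 1 culture, the p-values measure only the spread between dishes. All dose comparisons used the same 3 DMSO libraries. The values are normalized counts, that is, reads per gene divided by a size factor of the library.

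HSP90 is a dimeric, ATP-driven chaperone that finishes the folding of client proteins such as kinases and steroid receptors. Co-chaperones set the pace of its ATPase cycle and bring it clients: adaptors deliver clients from HSP70 or hold kinases, some activate the ATPase, and others hold the closed state. HSP90AA1 is known as the stress-inducible cytosolic isoform and HSP90AB1 as the constitutive one, and genes of this system are classical targets of the heat shock factor HSF1.

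The libraries held between 12415519 and 15284762 reads on genes, and mitochondrial genes took 0.889% to 2.06% of them. The library 0.5 nM replicate 2 stood apart from its group. The chi-square of its pairs, divided by the degrees of freedom, was 11.1 and 16.6, against 2.04 to 6.27 for the other pairs of replicates, and 8 of the 9 genes lay above their group mean in it. In 5 nM replicate 2, 9 of 9 lay above the mean, while in each of these libraries about as many tested genes lay above the group mean as below it (50.7% and 50.1% above). Of the markers of the line, VIM, CD44, AXL and KRT18 had between 4399 and 14336 normalized counts in DMSO, while the estrogen receptor gene ESR1 was at 0 and the progesterone receptor gene PGR at 14.0. The epithelial cadherin gene CDH1 had 196 and the receptor kinase gene ERBB2 1226, so neither was absent.

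Both isoforms and 6 of the 7 co-chaperones rose at 500 nM, and the response was concentrated in the upper part of the dose range. No member passed the threshold (limma, Benjamini-Hochberg adjusted p under 0.05 over 13561 genes) at 0.5 nM, where 0.251% of all tested genes were called higher. There 2 of the 9 were higher with an unadjusted p under 0.05, a level that 1997 of the 13561 tested genes reached in either direction. edgeR and DESeq2 also called 0 at that dose. At 5 nM 1 of 9 passed (AHSA1), with 0.465% of tested genes called higher. At that dose 5 of the 9 were higher with an unadjusted p under 0.05. In either direction, 1749 of all tested genes reached that level. At 50 nM 7 of 9 passed, all but PTGES3 and CDC37, against 2.29% of tested genes, and at 500 nM 8 of 9, all but CDC37, against 7.69%. None was called lower at any dose, while 0.922%, 1.71%, 3.71% and 10.1% of tested genes were, from the lowest to the highest dose, and 0 of the 9 had an unadjusted p under 0.05 in that direction or a call by edgeR or DESeq2. The median log2 difference of the 9 genes from DMSO was 0.06, 0.10, 0.41 and 0.64 with rising dose, while that of all tested genes lay between -0.01 and 0.00. A bulk measurement cannot tell more transcript per cell from more cells with a high level.

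**Figure D1:**
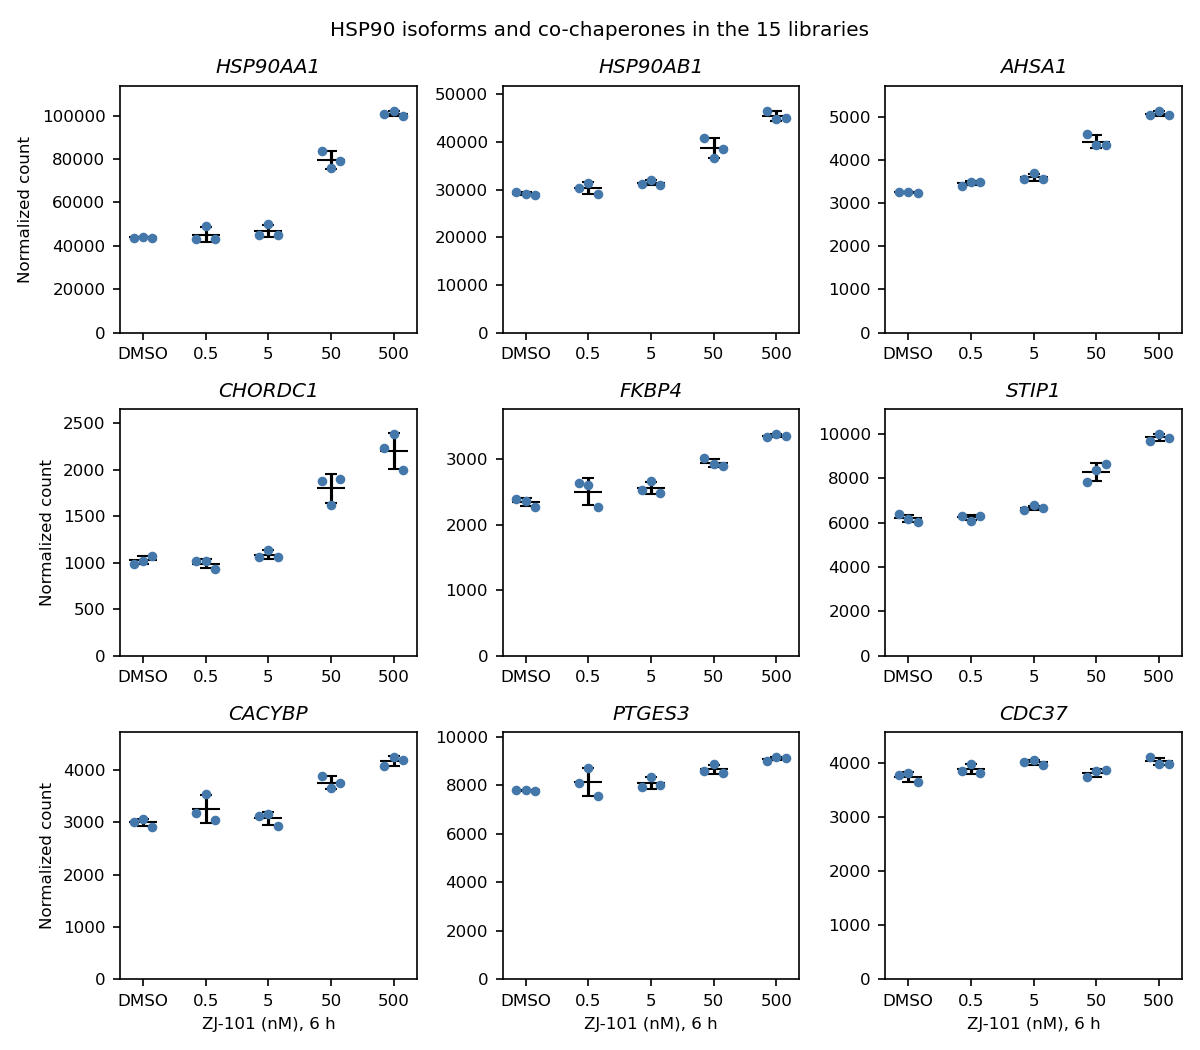
Normalized counts (y axis, from 0) of the 9 genes in each of the 15 libraries (points) by ZJ-101 dose in nM (x axis), with the mean (bar) and SD (whiskers, n = 3). HSP90AA1 lies between 43137 and 49892 in the 9 libraries at 5 nM or below and between 75657 and 102246 in the 6 libraries above that dose, whereas CDC37 stays between 3641 and 4110 throughout.

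HSP90AA1 (chromosome 14, 102080742 to 102139699, minus strand, GENCODE 44 on hg38) had the largest log2 difference of the 9 genes at 50 and at 500 nM. Its normalized counts in the 3 DMSO libraries were 43811, 44274 and 43780. At 0.5 nM they were 43137, 49013 and 43185, and at 5 nM 45113, 49892 and 45013. The high library at each of these doses is replicate 2. At 50 nM the counts were 83750, 75657 and 78865, and at 500 nM they were 100688, 102246 and 99685. The 3 groups at or below 5 nM lie close together, although the 5 nM libraries all lie above those of DMSO. Neither upper group overlaps any other. Libraries that all lay above DMSO were found for 10.5% of tested genes at 5 nM, 11.6% at 50 nM and 18.9% at 500 nM. The log2 difference from DMSO was 0.85 ± 0.058 (SE, adjusted p = 1.2e-08) at 50 nM and 1.20 ± 0.058 (adjusted p = 5.5e-11) at 500 nM, folds of 1.81 and 2.29. At 0.5 and 5 nM it was 0.03 and 0.08, with 95% confidence intervals of -0.09 to 0.16 and -0.04 to 0.21. By recovered reads HSP90AA1 ranked 7th to 9th of all genes in the 9 libraries at or below 5 nM, 3rd or 4th at 50 nM and 2nd in all 3 libraries at 500 nM.

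HSP90AB1 (chromosome 6, 44246166 to 44253888, plus strand) rose by less. DMSO libraries had 29465, 29072 and 28848 normalized counts, those at 0.5 nM 30349, 31498 and 29031, and those at 5 nM 31301, 32048 and 31019. At 50 nM the counts were 40909, 36763 and 38493, and at 500 nM 46596, 44784 and 44962. The 5 nM libraries already lie above every DMSO library, as for 10.5% of tested genes, but the difference of 0.11 there did not pass (adjusted p = 0.31). It was 0.41 ± 0.047 at 50 nM (SE, adjusted p = 9.2e-06) and 0.64 ± 0.047 at 500 nM (adjusted p = 1.0e-08). Together the isoforms took 0.541% ± 0.0012 of a library's reads in DMSO, 0.877% ± 0.049 at 50 nM and 1.09% ± 0.0085 at 500 nM (SD, n = 3), and the 9 genes together 0.743%, 1.13% and 1.37%.

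The balance between the isoforms shifted towards HSP90AA1 at the upper doses. The ratio of HSP90AA1 to HSP90AB1 normalized counts was 1.49, 1.52 and 1.52 in the DMSO libraries, 1.42, 1.56 and 1.49 at 0.5 nM, and 1.44, 1.56 and 1.45 at 5 nM. It was 2.05, 2.06 and 2.05 at 50 nM and 2.16, 2.28 and 2.22 at 500 nM. All 6 libraries above 5 nM exceed all 9 others. The log2 ratio was higher than in DMSO by 0.44 at 50 nM and 0.56 at 500 nM, each with p = 0.1 in a two-sided exact permutation test, which is the smallest p that 3 against 3 libraries allow. At 0.5 and 5 nM the difference was -0.02 (exact p = 0.8) and -0.03 (exact p = 0.5). Over the 15 libraries the log2 ratio had a slope of 0.16 per step of dose rank (two-sided permutation test with 100000 resamples, p = 1.1e-04). Per length of the MANE Select transcript (3228 and 2555 bases), HSP90AA1 made up 54.4% ± 0.32 of the isoforms' sum in DMSO and 63.7% ± 0.64 at 500 nM (SD, n = 3).

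**Figure D2:**
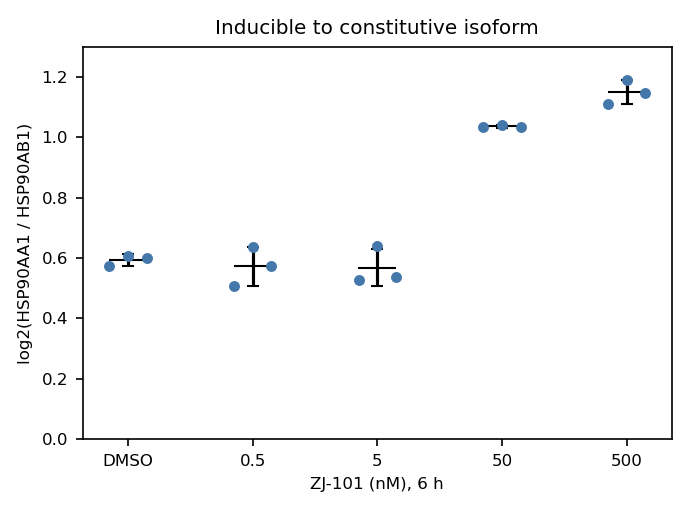
The log2 ratio of HSP90AA1 to HSP90AB1 normalized counts (y axis) in each library (points) by ZJ-101 dose in nM (x axis), with the mean (bar) and SD (whiskers, n = 3). The group means are 0.59, 0.57 and 0.57 up to 5 nM, then 1.04 at 50 nM and 1.15 at 500 nM.

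RefSeq promoter windows (GRCh38.p14, 250 bases before to 50 after each start) were found for 8 of the 9 genes, in 14 windows, and not for FKBP4. They were searched for the letters of the heat shock element, inverted GAA units: GAANNTTC or TTCNNGAA for a pair of units, and GAANNTTCNNGAA or TTCNNGAANNTTC for 3 units. These patterns cover both strands, and each match of 3 units holds 2 overlapping matches of the pair. Of all 35116 windows in the table, 13.5% held a pair and 0.49% held 3 units. A pair was found in 4 of the 14 windows, 1 each of HSP90AA1, HSP90AB1, CHORDC1 and STIP1, and 3 units in the first 3 of these. In STIP1 the only match begins at base 14 of the transcript. The windows of AHSA1, CACYBP, PTGES3 and CDC37 held no match to these letters. The stretches below show the isoforms side by side and the longest run, that of CHORDC1. They lie outside annotated exons and are written 5′ to 3′ on the gene's strand, with matched pairs of units in capitals. The first is 110 to 51 bases before the HSP90AA1 start (chr14:102087095-102087154, minus strand), the second the same interval before the MANE start of HSP90AB1 (chr6:44246991-44247050, plus strand), and the third 175 to 96 bases before a start that RefSeq places further downstream in HSP90AB1 (chr6:44247768-44247847, plus strand), inside the first intron of the MANE transcript. The fourth is 88 to 29 bases before the CHORDC1 start (chr11:90223078-90223137, minus strand).
HSP90AA1 start: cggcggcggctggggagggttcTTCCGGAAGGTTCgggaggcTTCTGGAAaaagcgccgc
HSP90AB1 MANE start: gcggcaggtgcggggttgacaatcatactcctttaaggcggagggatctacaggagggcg
HSP90AB1 downstream start: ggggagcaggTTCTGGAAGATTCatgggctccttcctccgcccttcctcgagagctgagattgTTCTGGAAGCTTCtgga
CHORDC1 start: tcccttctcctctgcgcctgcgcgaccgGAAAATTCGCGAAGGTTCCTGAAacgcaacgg
HSP90AA1 has its matches at its MANE start and none at the start further upstream (chr14:102139700-102139999, minus strand). HSP90AB1 has none at its MANE start. A match to letters describes these windows and was not tested for binding or use.

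CHORDC1 and AHSA1 act on the ATPase cycle of HSP90. CHORDC1 (chromosome 11, 90200429 to 90223077, minus strand) encodes a CHORD and CS domain protein, also called Morgana, that binds HSP90 and is itself known as a heat shock gene. Its DMSO libraries had 988, 1020 and 1069 normalized counts, and those at 5 nM 1065, 1138 and 1059. At 50 nM it had 1879, 1619 and 1900, and at 500 nM 2228, 2383 and 1994. The upper groups lie well above DMSO but spread more than those of any other co-chaperone on the log2 scale of the test. The log2 difference from DMSO was 0.81 ± 0.068 at 50 nM (SE, adjusted p = 2.2e-07) and 1.10 ± 0.068 at 500 nM (adjusted p = 1.2e-09), the next in size after HSP90AA1. At 0.5 nM, with 1018, 1013 and 937 normalized counts, the difference was -0.05 with a 95% confidence interval of -0.20 to 0.09.

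AHSA1 (chromosome 14, 77457870 to 77469472, plus strand), the strongest known activator of the HSP90 ATPase, was the only member to pass below 50 nM. Its counts were 3264, 3253 and 3236 in DMSO, 3402, 3499 and 3489 at 0.5 nM, and 3559, 3695 and 3553 at 5 nM. No library of either dose overlaps DMSO, a pattern shown upwards by 7.43% of tested genes at 0.5 nM and 10.5% at 5 nM. The log2 difference was 0.15 ± 0.037 at 5 nM (SE, adjusted p = 0.044), and 0.09 with adjusted p = 0.26 at 0.5 nM. The 5 nM call was lost without any 1 of the 3 DMSO libraries, the 3 libraries at 5 nM, the 3 at 500 nM, 0.5 nM replicate 1 or 50 nM replicate 3, with adjusted p between 0.051 and 0.21. It was also lost when every gene was kept (adjusted p = 0.14) and when libraries were scaled to equal totals (0.058). At 50 nM AHSA1 had 4598, 4337 and 4346 normalized counts and at 500 nM 5051, 5143 and 5035, log2 differences of 0.44 (adjusted p = 1.8e-07) and 0.64 (adjusted p = 5.2e-10).

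STIP1 (chromosome 11, 64185272 to 64204543, plus strand) encodes HOP, the adaptor that links HSP70 and HSP90. It had 6370, 6175 and 6045 normalized counts in DMSO, 8371 and 8635 in replicates 2 and 3 at 50 nM with 7817 in replicate 1, and 9684, 9990 and 9819 at 500 nM. At 0.5 and 5 nM it had 6085 to 6307 and 6577 to 6768. The 0.5 nM libraries overlap DMSO and the higher groups do not. Its log2 difference from DMSO was 0.42 ± 0.041 at 50 nM (SE, adjusted p = 1.5e-06) and 0.67 ± 0.041 at 500 nM (adjusted p = 1.2e-09), the largest after HSP90AA1 and CHORDC1.

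FKBP4 (chromosome 12, 2794970 to 2805423, plus strand) encodes FKBP52, an immunophilin of steroid receptor complexes. Its normalized counts were 2388, 2361 and 2269 in DMSO, 3010, 2920 and 2897 at 50 nM and 3332, 3382 and 3353 at 500 nM. Those at 0.5 nM were 2629, 2608 and 2267, with replicate 3 below every DMSO library, and those at 5 nM 2486 to 2661, above all of DMSO. The log2 difference was 0.33 at 50 nM (adjusted p = 0.00025) and 0.52 at 500 nM (adjusted p = 5.2e-07). Of its exon bases, 11.4% lie inside exons of other annotated genes.

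CACYBP (chromosome 1, 174999163 to 175012027, plus strand) encodes a CS domain protein that binds calcyclin and takes part in ubiquitin ligase complexes. Its counts were 3012, 3066 and 2919 in DMSO, 3888, 3652 and 3749 at 50 nM and 4078, 4250 and 4197 at 500 nM. The log2 differences were 0.33 (adjusted p = 0.00032) and 0.48 (adjusted p = 1.8e-06). At 0.5 nM it had 3187, 3550 and 3039, the high one again in replicate 2, and at 5 nM 2940 to 3168, so both low doses overlap DMSO. Other annotated genes cover 18.4% of its exon bases, and whether the counting used the strand is not given in the sources used here.

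PTGES3 (chromosome 12, 56663341 to 56688408, minus strand) encodes p23, which holds HSP90 in its closed form. Its DMSO libraries were close together at 7805, 7808 and 7777 normalized counts, and those at 0.5 nM were spread over 8103, 8717 and 7564, with 7917 to 8357 at 5 nM. At 50 nM it had 8583, 8859 and 8520 and at 500 nM 9020, 9163 and 9122. The 50 nM libraries do not overlap DMSO, but the log2 difference of 0.15 did not pass (adjusted p = 0.059). It passed without 0.5 nM replicate 2 (adjusted p = 0.0071) and without 0.5 nM replicate 3 (adjusted p = 0.023), libraries that enter only through the shared estimate of the spread, and DESeq2 on the recovered reads also called it (adjusted p = 0.022). At 500 nM the difference was 0.22 ± 0.045 (SE, adjusted p = 0.0016), the smallest among the genes that passed.

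CDC37 (chromosome 19, 10391133 to 10420121, minus strand), the adaptor for kinase clients, did not pass at any dose. It had 3788, 3808 and 3641 normalized counts in DMSO, 3736, 3857 and 3873 at 50 nM and 4110, 3989 and 3988 at 500 nM. At 0.5 nM it had 3853, 3986 and 3813, and at 5 nM 4012, 4055 and 3968. Those at 5 nM lie above every library at 50 nM. The difference from DMSO at 500 nM was 0.11 with a 95% confidence interval of 0.03 to 0.18 (adjusted p = 0.058), so a change of the size seen for HSP90AB1 lies outside the interval. Without 0.5 nM replicate 2 it passed with the same log2 difference (adjusted p = 0.025), and DESeq2 on the recovered reads also called it (adjusted p = 0.047).

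**Figure D3:**
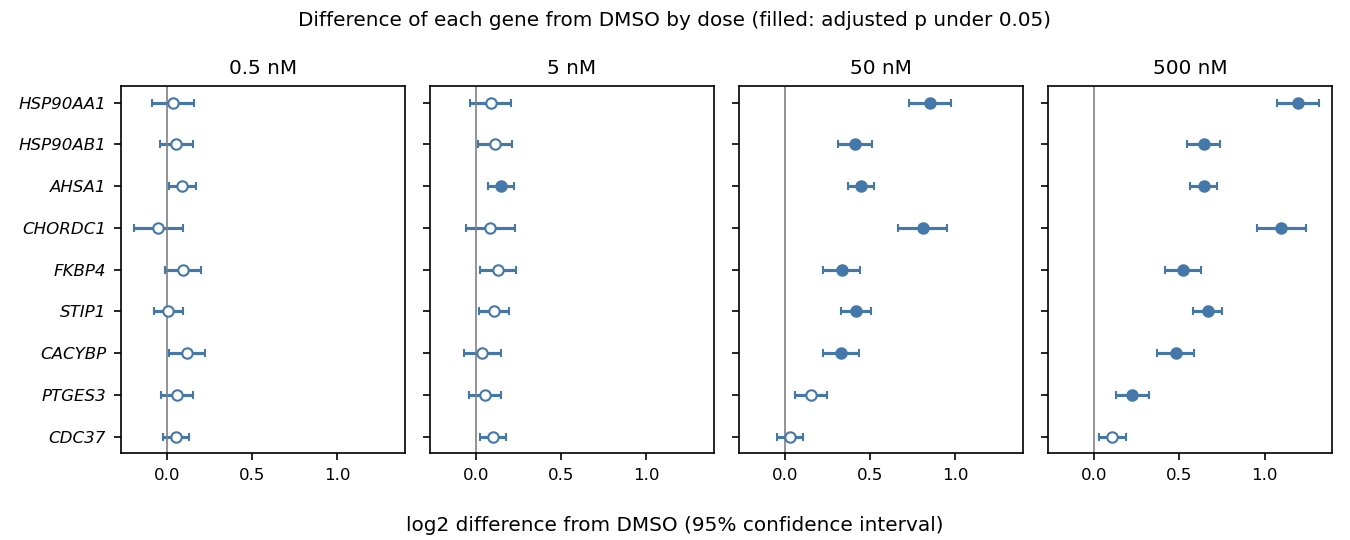
Log2 difference of each gene from DMSO (x axis) at the 4 doses (panels), with 95% confidence intervals from limma; filled points passed an adjusted p of 0.05. The number of filled points is 0, 1, 7 and 8, and at 500 nM the differences run from 0.11 (CDC37) to 1.20 (HSP90AA1).

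Between neighbouring doses, the step from 5 to 50 nM had the most calls among the 9 genes. None of the 9 genes passed from 0.5 to 5 nM, where 0.0295% of tested genes were called higher and edgeR and DESeq2 called 0 of the 9. For that step 1 of the 9 was higher with an unadjusted p under 0.05, a level that 1079 of all 13561 tested genes reached in either direction. From 5 to 50 nM 7 of 9 passed against 2.62% of tested genes, with log2 differences from 0.20 for FKBP4 (adjusted p = 0.024) to 0.72 for CHORDC1 (adjusted p = 1.5e-06) and 0.77 for HSP90AA1 (adjusted p = 9.9e-08). The call for FKBP4 was lost without 5 nM replicate 1 or 3 or 50 nM replicate 1 or 3 (adjusted p between 0.057 and 0.12). PTGES3 (0.10) and CDC37 (-0.07) did not pass, although the CDC37 libraries at 50 nM all lie below those at 5 nM, as for 11.8% of tested genes.

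A further step was present from 50 to 500 nM for 5 of the 9 genes, where 0.479% of tested genes were called higher. They were HSP90AA1 (0.35, adjusted p = 0.0024), CHORDC1 (0.29, adjusted p = 0.028), STIP1 (0.25, adjusted p = 0.0021), HSP90AB1 (0.23, adjusted p = 0.011) and AHSA1 (0.20, adjusted p = 0.0057). The libraries of all 9 genes at 500 nM lie above those at 50 nM, as 9.67% of tested genes did. Without 50 nM replicate 2 or 500 nM replicate 1, 3 genes passed, since HSP90AB1 (adjusted p = 0.066 and 0.053) and CHORDC1 (0.19 and 0.10) dropped out, and without 500 nM replicate 2 CHORDC1 did (0.16). FKBP4 (0.19, adjusted p = 0.060) passed without 0.5 nM replicate 2 (0.019) or 3 (0.011), and CACYBP (0.15, adjusted p = 0.18) without 0.5 nM replicate 2 (0.028). The slope on dose rank passed for 8 of 9 genes, again all but CDC37, against 8.23% of tested genes, and ran from 0.05 log2 per step for PTGES3 to 0.32 for HSP90AA1.

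Compared per length (normalized counts per kilobase of the MANE Select transcript), the 9 genes kept the same order in all 5 groups. HSP90AA1 came first with 13617 ± 86 per kilobase in DMSO (SD, n = 3), then HSP90AB1 (11401 ± 122), PTGES3 (4108 ± 8.8), STIP1 (2896 ± 77), AHSA1 (2432 ± 11), CDC37 (2315 ± 56), CACYBP (1045 ± 26), FKBP4 (630 ± 17) and CHORDC1 (334 ± 13). Neighbours in this order did not overlap in any group. At 500 nM the gap between PTGES3 (4795 ± 39) and STIP1 (4594 ± 72) had narrowed, and CHORDC1 had reached 717 ± 64.

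Set against HSP90 itself, most co-chaperones stood lower at the upper doses. Per length, the 7 co-chaperones together stood at 55.0% ± 0.37 of the isoforms' sum in DMSO, 55.5% ± 1.5 at 0.5 nM, 54.8% ± 0.99 at 5 nM, 42.3% ± 2.3 at 50 nM and 38.2% ± 0.47 at 500 nM (SD, n = 3). PTGES3 went from 16.4% ± 0.058 in DMSO to 9.78% ± 0.15 at 500 nM and CDC37 from 9.25% ± 0.17 to 5.08% ± 0.065. STIP1 and AHSA1, which themselves rose, went from 11.6% ± 0.25 to 9.37% ± 0.19 and from 9.72% ± 0.022 to 7.74% ± 0.090. CHORDC1 was the exception, with 1.34% ± 0.061 in DMSO and 1.46% ± 0.12 at 500 nM, groups that overlap. These percentages follow from the counts above and were not tested separately.

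**Figure D4:**
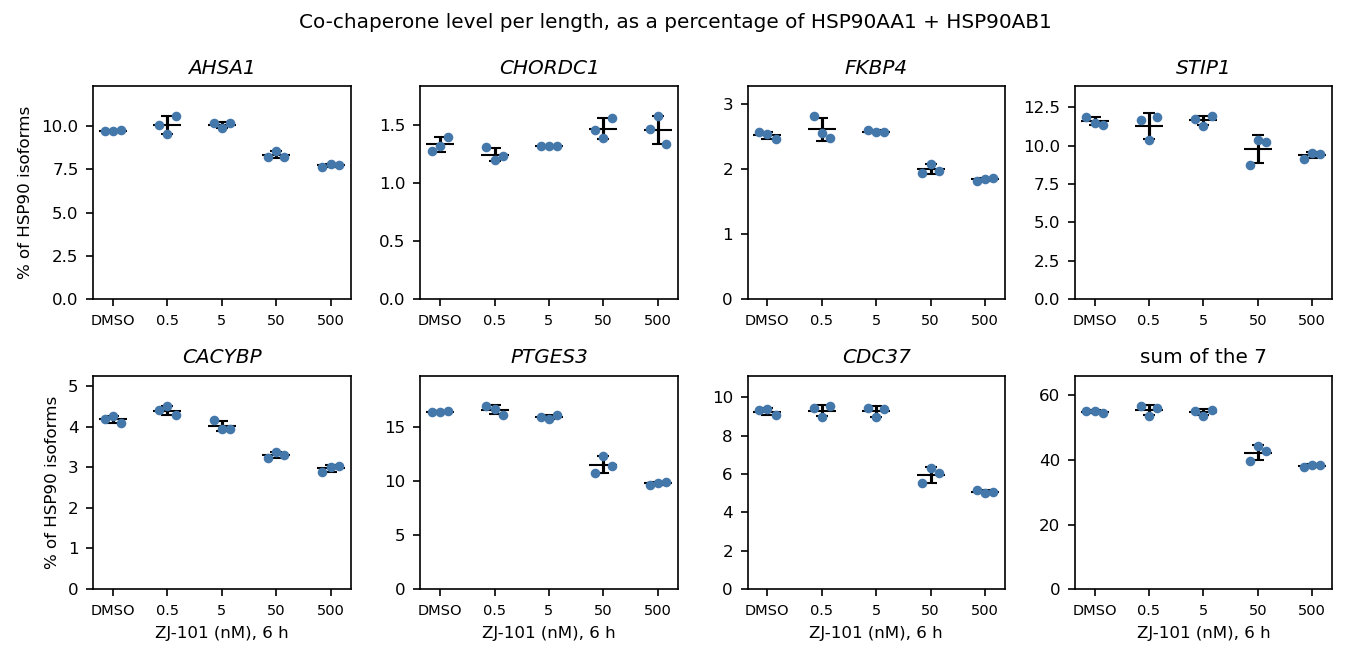
Level of each co-chaperone per kilobase of transcript as a percentage of HSP90AA1 plus HSP90AB1 (y axes, from 0) in each library (points) by ZJ-101 dose in nM (x axes), with the mean (bar) and SD (whiskers, n = 3); the last panel is the sum of the 7. The sum stands near 55.0% up to 5 nM and at 38.2% at 500 nM, while CHORDC1 lies between 1.20% and 1.58% in every library.

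Across the 15 libraries the members other than CDC37 followed each other closely, as described by Pearson's r of the log2 values, which share the same libraries and doses. HSP90AA1 had r = 0.99 with HSP90AB1, AHSA1 and CHORDC1, 0.89 with PTGES3 and 0.34 with CDC37. After each group's mean was removed, r with HSP90AA1 was 0.83 for CACYBP, 0.77 for HSP90AB1, 0.77 for AHSA1 and 0.64 for PTGES3. It was 0.55 for FKBP4, 0.54 for CHORDC1, 0.30 for CDC37 and -0.36 for STIP1. None of these r values was tested. Of the tested genes outside the 9, the 5 most like HSP90AA1 over the 15 libraries were DNAJA1 (r = 0.993), HSPH1, HSP90AA2P, DNAJB1 and PWWP3A, and the 5 most like HSP90AB1 were HSPD1 (r = 0.990), ATP6V0A1, HSPH1, DNAJB1 and PWWP3A.

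Pseudogenes of the 9 genes can take reads from their parents. The table lists 29, of which 15 were at 0 in every library and 5 were tested. HSP90AA2P rose from 287 ± 15 normalized counts in DMSO to 663 ± 16 at 500 nM (SD, n = 3, log2 difference 1.21, adjusted p = 2.2e-09) and HSP90AB3P from 67.8 ± 8.8 to 123 ± 8.5 (0.85, adjusted p = 5.3e-05). At that dose 7.69% of all tested genes were called higher. The other tested pseudogenes were not called: CACYBPP2 (0.22, adjusted p = 0.53), PTGES3P1 (0.20, adjusted p = 0.30) and PTGES3P3 (-0.13, adjusted p = 0.79). How reads that match both a pseudogene and its parent were counted is not given in the sources used here, so the pseudogene values are uncertain. Those of HSP90AA2P and HSP90AB3P amount to under 1% of the parent's counts. That share does not bound reads that the counting may have left out.

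Neither of the 2 HSP90 paralogs of other compartments was called higher. Of all tested genes, 7.69% were called higher and 10.1% lower at 500 nM, and 2.29% and 3.71% at 50 nM. With 2 genes, the lack of a higher call cannot be set apart from those shares. HSP90B1, the ER paralog GRP94, fell from 15949.8 ± 69 normalized counts in DMSO to 12585 ± 134 at 500 nM (SD, n = 3), a log2 difference of -0.34 (adjusted p = 8.1e-06). It also passed at 50 nM (-0.16, adjusted p = 0.028), a call lost without any 1 DMSO library, 50 nM replicate 1 or 50 nM replicate 3 (adjusted p between 0.057 and 0.15). The mitochondrial paralog TRAP1 had 905 ± 22 in DMSO and 970 ± 16 at 500 nM (0.10, adjusted p = 0.20).

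Among 25 other co-chaperones, 23 could be tested (TTC4 and ITGB1BP2 lay below the filter). At 500 nM 5 rose, where 7.69% of all tested genes did, and 0 fell, where 10.1% did, with 0 falls also at an unadjusted p under 0.05 and by edgeR and DESeq2. Those that rose were PPID (cyclophilin 40, an immunophilin; 516 ± 26 to 740 ± 44, log2 difference 0.52, adjusted p = 6.1e-05), SUGT1 (an adaptor for leucine-rich repeat clients; 0.50, adjusted p = 2.3e-06), FKBP5 (FKBP51, the relative of FKBP4; 0.30, adjusted p = 0.0014), NUDC (a CS domain protein; 0.28, adjusted p = 0.00041) and ST13 (HIP, which binds HSP70; 0.26, adjusted p = 0.0002). At 50 nM 4 rose, all of these but FKBP5, where 2.29% of all tested genes did, although PPID was lost without DMSO replicate 2 (adjusted p = 0.054) or 50 nM replicate 3 (0.050), and ST13 without DMSO replicate 3 (0.078) or 50 nM replicate 1 (0.059). The median of the 23 at 500 nM was 0.06, against 0.64 for the 9 genes and 0.00 for all tested genes. Both lists were chosen with earlier results of these data known, so this contrast is a description and was not tested.

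Of 32 genes that encode well-known clients, 31 were tested (ILK lay below the filter), and at 500 nM 3 rose and 7 fell, where 7.69% of all tested genes rose and 10.1% fell, with a median log2 difference of 0.01. Those that rose were the receptor kinases EGFR (4641 ± 31 to 7599 ± 893 normalized counts, 0.70, adjusted p = 0.00017) and EPHA2 (9873 ± 232 to 14838 ± 470, 0.59, adjusted p = 2.1e-09) and the kinase ARAF (0.24, adjusted p = 0.0017). The largest falls were those of the autophagy kinase ULK1 (-0.40, adjusted p = 0.0012), the aryl hydrocarbon receptor AHR (-0.28, adjusted p = 0.0014) and the glucocorticoid receptor NR3C1 (-0.26, adjusted p = 0.013). NR3C1 was lost without DMSO replicate 3 (adjusted p = 0.067) or 500 nM replicate 2 (0.060). The number that fell was 4 when DMSO replicate 2 or 3 was left out and 3 when 500 nM replicate 2 was. At 50 nM EGFR, EPHA2 and ARAF rose, ARAF not without DMSO replicate 1 (adjusted p = 0.055) or 2 (0.096), and 1 client gene, HIF1A, fell (-0.13, adjusted p = 0.046), where 2.29% of all tested genes rose and 3.71% fell. That call was lost without any 1 library of DMSO, 5 nM or 500 nM, 0.5 nM replicate 1 or 50 nM replicate 3, while 3 and 2 client genes fell without 0.5 nM replicate 2 and 3.

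Transcripts of the heat shock factors HSF1 and HSF2 and of HSBP1 did not pass at 500 nM, where 7.69% of all tested genes were called higher and 10.1% lower. HSF1 had 1922 ± 34 normalized counts in DMSO and 2029 ± 31 at 500 nM (SD, n = 3, log2 difference 0.08), HSF2 429 ± 34 and 382 ± 18 (-0.17), and HSBP1, which encodes a small protein that binds HSF1, 1817 ± 72 and 1816 ± 52 (-0.00). Of the 3, HSF2 had an unadjusted p under 0.05, a level that 3980 of all tested genes reached in either direction. HSF1 is regulated mainly at the protein level, which was not measured here.

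**Figure D5:**
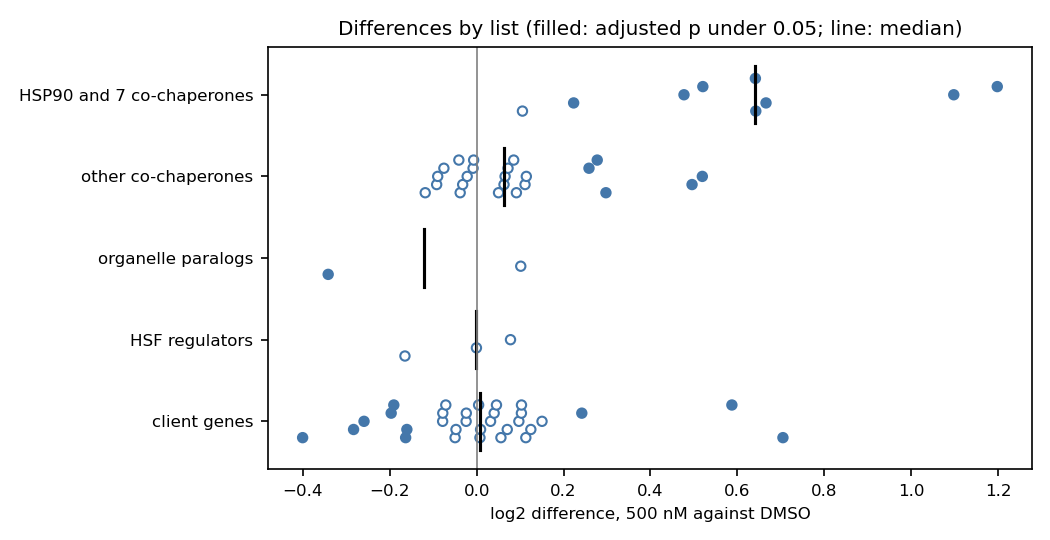
Log2 difference between 500 nM and DMSO (x axis) of each tested gene in 5 lists (rows), with the median of each list as a line; filled points passed an adjusted p of 0.05. The 9 HSP90 and co-chaperone genes have a median of 0.64 and the 23 other co-chaperones 0.06. The median is -0.12 for the 2 organelle paralogs, -0.00 for the HSF regulators (HSF1, HSF2 and HSBP1) and 0.01 for the 31 client genes. The lists were chosen with earlier results of these data known.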

How the data were processed

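RNA-seq of 15 libraries (5 groups of 3) was analysed. Per the labels and the paper's methods, the authors selected poly-A RNA, used HISAT2 for alignment (build hg38) and HTSeq for counting, and deposited DESeq2-normalized counts (signal values: counts divided by size factors, here 0.916 to 1.13). Tool versions are not given in the sources used here. Dividing by each library's smallest step gave whole reads for 100% of values within 0.001. For the 13561 genes whose mean was 10 or more, log2(normalized count + 1) was tested with limma 3.58.1 (trend, 5 groups in 1 fit, 10 residual degrees of freedom), with Benjamini-Hochberg adjustment over all genes. This scale understates changes of low genes. Alternatives were other pseudocounts (0.5, 5), filters (none, 50), TMM and equal totals, edgeR 4.0.16 and DESeq2 1.42.0 on recovered reads, a replicate block, single libraries left out, a threshold of 0.1 and the compared groups alone. The isoform ratio was tested by permutation (scipy 1.17.1). The test was also run on simulated data with the same spread setting for every gene, log2 changes linear in dose rank and no outlying library. That run does not show how the test performs where a library stands apart from its group.

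The members and lists were chosen with earlier results of these data known. Named genes are all 9 members, in each other list up to 3 rises and 3 falls past the threshold at 500 nM (all members where 5 or fewer were called), and the 5 genes most like each isoform. Other experiments of the study were not analysed here.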

Additional observations from a re-analysis of the deposited data

How the results depend on the processing

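The number of the 9 genes called higher at 0.5, 50 and 500 nM, from 5 to 50 nM and for the slope moved by less than 1.5 times under every alternative run, and no called difference changed sign. The number of the 9 genes higher at 5 nM fell to 0 with no filter, with the replicate block and with the same total per library, and ranged from 0 to 1 with single libraries left out. From 50 to 500 nM it ranged from 3 to 7 with single libraries left out. Organelle paralogs lower at 50 nM numbered 0 with no filter and 0 to 1 with single libraries left out. Client genes lower at 50 nM numbered 0 with no filter, with the same total and with edgeR, 3 for the compared groups alone and at a threshold of 0.1, and 0 to 3 with single libraries left out. At 500 nM they ranged from 3 to 7 with single libraries left out. Where an alternative changed a call, the cause was not tested.

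Replicate numbers were not taken to pair the libraries, since correlations between same-numbered libraries of different groups ran from -0.085 to 0.096 and none of the 30 was over 0.1. As a hint the other way, 9 of 15 libraries correlated best with a library of their own number, which 4 of the 12 libraries of other groups carry. With the replicate number as a block, AHSA1 no longer passed at 5 nM (adjusted p = 0.053), while PTGES3 at 50 nM (0.038) and FKBP4 from 50 to 500 nM (0.034) did, giving 8 genes at 50 nM and 6 for the last step. The slope of the isoform ratio stayed at 0.16 with the block (permutation p = 7.0e-05), ranged from 0.15 to 0.17 with single libraries left out and was 0.22 over the 12 treated libraries. TMM or equal totals shifted the median of all genes by at most 0.01 on the log2 scale. With 3 libraries per group, differences of 0.15 to 0.19 fell on either side of the limma threshold. AHSA1 at 5 nM passed (0.15, adjusted p = 0.044). PTGES3 at 50 nM (0.15, adjusted p = 0.059) and FKBP4 from 50 to 500 nM (0.19, adjusted p = 0.060) did not. Smaller differences that were not called therefore do not show an absence of change.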
